A study of Mus musculus with 11 samples.

Results

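Integrins and laminins, the receptors and ligands through which cells hold on to basement membrane and to each other, were followed in mouse livers in which the co-activator YAP was switched on. The members were taken by symbol alone: the 26 genes for integrin subunits (Itga and Itgb) and the 11 genes for laminin chains (Lama, Lamb and Lamc), 37 of the 20893 genes in the deposited table. The rule used no measured value, but it was set with earlier results of these data known. The study asked how acute and sustained activation of YAP change gene expression in the adult liver. RNA of the whole organ was sequenced in bulk, in 11 libraries from C57BL/6 mice that carried ROSA26-rtTA-IRES-EGFP. The 4 controls were WT for the tetYAP transgene and ate doxycycline food for 7 days. The induced livers carried tetYAP, which encodes YAP S127A, a constitutively active form of YAP, under a doxycycline-dependent promoter, and 4 of them had doxycycline for 3 days and 3 for 7 days. The 3-day livers therefore had fewer days of doxycycline than the controls. According to the study's methods, rtTA stood behind a stop cassette that was removed by a Cre driven by the albumin promoter, so the transgene was meant for hepatocytes, whereas the RNA came from all cells of the liver.

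Laminins are secreted as trimers of an alpha, a beta and a gamma chain that assemble into the sheets of basement membrane. Integrins are pairs of an alpha and a beta subunit in the cell membrane. Itgb1 pairs with most alpha subunits, Itga3, Itga6 and Itga7 give its laminin receptors, Itga6 with Itgb4 anchors epithelia at hemidesmosomes, and Itgb2 pairs with the alpha subunits of leukocytes. In the normal liver, hepatocytes face sinusoids that lack a continuous basement membrane, whereas bile ducts and larger vessels rest on one.

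Values are eRPKM, reads on exons per kilobase of exon length, scaled by the authors to each library. Levels of genes of different length can thus be compared. Abundant genes such as Alb, whose reads hardly rose with depth, are an exception. Depth, recovered from the steps between low values, ran from 1251396 to 5495697 reads on genes in the controls, from 2660233 to 3681416 after 3 days and from 5312486 to 5941357 after 7 days. The 7-day liver 2 stood apart: 1613 genes were listed at 0 there, against 5084 and 5097 in the other 7-day livers, and rarely expressed members such as Itgad, Lamc3 and Itgae had their highest value in it. All 3 of the 7-day livers had more Xist than Ddx3y, the pattern of females, against 2 of 4 in each other group. The labels of the 3-day livers 1 and 4 and of the 7-day liver 2 carry a suffix, MF, that the sources used here do not explain. Of the YAP response genes, Cyr61 averaged 9.43 eRPKM in controls, 39.0 at 3 days and 91.0 at 7 days, and Ctgf averaged 8.69, 24.1 and 96.7. Neither induced group overlapped with the controls for either gene. By limma, neither gene was called at 3 days against control (adjusted p = 0.0117 for Cyr61 and 0.083 for Ctgf). Both were called at 7 days. Yap1 itself averaged 18.25, 16.85 and 18.4 eRPKM and was not called in any comparison (-0.10 ± 0.15 at 3 days and 0.03 ± 0.17 at 7 days against control, log2). The study, in contrast, reports that YAP had already reached its highest level by the earlier time point in these mice. Whether reads of the tetYAP transgene were counted under Yap1 was not tested. The Yap1 values therefore do not show whether the transgene was on. The hepatocyte markers Alb, Ttr, Apoa1 and Hnf4a summed to 829.7 to 2378 eRPKM in controls and to 689.9 to 762 at 7 days. Most of each sum was Alb and Apoa1, whose reads differed far less between livers than depth did. Alb had 2417 to 3102 reads in controls and 2840 to 2934 at 7 days, and Apoa1 had 1078 to 1423 and 1471 to 1496. In eRPKM both were therefore highest in control 4, the shallowest library. The part of depth in the sums was not tested. Of these markers, Ttr fell at 7 days (-1.40 ± 0.26, adjusted p = 0.0011 by limma), and Alb, Apoa1 and Hnf4a were not called. In eRPKM every 7-day liver was below every control for Ttr, Alb and Hnf4a, as it was for 13.3% of all genes. In reads the 7-day livers were not below the controls for Alb. The part of these markers in the results that follow was not tested.

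The promoters of 3 members that rose at 7 days are shown, from the matrix and from leukocyte adhesion: Lama5 and Lamb2, chains of basement membrane, and Itgam, an integrin of myeloid cells. Each sequence is the 250 bases before the RefSeq start on GRCm38.p6, written 5′ to 3′ on the gene's own strand, and capitals mark a match to GAGGAAG, here called the PU.1 motif after the myeloid factor whose sites share this core.
Lama5, chr2:180225860-180226109 (minus strand): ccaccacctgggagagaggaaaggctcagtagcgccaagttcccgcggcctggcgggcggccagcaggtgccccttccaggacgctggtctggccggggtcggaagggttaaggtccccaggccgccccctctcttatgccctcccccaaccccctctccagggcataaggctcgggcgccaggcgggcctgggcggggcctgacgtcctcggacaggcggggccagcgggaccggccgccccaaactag
Lamb2, chr9:108479612-108479861 (plus strand): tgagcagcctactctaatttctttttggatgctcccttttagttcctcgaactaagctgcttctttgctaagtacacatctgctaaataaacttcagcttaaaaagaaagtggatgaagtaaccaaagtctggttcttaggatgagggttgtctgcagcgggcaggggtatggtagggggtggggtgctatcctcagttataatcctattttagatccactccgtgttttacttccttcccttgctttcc
Itgam, chr7:128062390-128062639 (plus strand): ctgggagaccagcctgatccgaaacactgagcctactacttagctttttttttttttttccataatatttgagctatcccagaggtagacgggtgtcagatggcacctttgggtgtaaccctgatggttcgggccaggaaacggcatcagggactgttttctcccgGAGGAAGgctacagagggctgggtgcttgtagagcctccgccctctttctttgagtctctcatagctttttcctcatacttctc
The windows were searched on both strands for this motif and for 2 others. The TEAD motif was GGAATG in these searches. The AP-1 motif was written as TGANTCA, with N for any base. Of all 32851 promoters of this length, 10.6% held the PU.1 motif, 12.6% the TEAD motif and 6.75% the AP-1 motif. Of the 37 members, 23 had an entry, and 8 of these rose at 7 days: Lama5, Lamb2, Itga3, Itga4, Itga5, Itga9, Itgb5 and Itgam. None of the 8 held a TEAD or AP-1 motif in its window, and Itgam alone among them held the PU.1 motif. That motif was also in the windows of Itga11, Itga2b, Itgav, Itgb6, Lama2 and Lamb3, none of which rose. The TEAD motif was found in the windows of Itga10, Itgb1 and Lamb3, none of which rose. These letters describe the windows and nothing about binding.

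After 3 days of YAP induction no integrin or laminin passed the test, whereas after 7 days 14 did. A call needed both an adjusted p below 0.01 and a log2 fold change beyond 0.5 either way, from limma on log2(eRPKM + 0.5) with adjustment over all 14244 genes tested, 36 of which were members. Only Itgad missed the filter on low values. At 3 days none of the 36 was called in either direction, against a background of 0.0421% of all genes that rose and 0% that fell. At an unadjusted p under 0.05, Itga1 was higher and Itga4 lower, and none was called by limma-voom on recovered reads either. The YAP response genes Cyr61 and Ctgf were not called at 3 days by limma on log2(eRPKM + 0.5) either.

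At 7 days against control 14 of the 36 members rose (38.9%), against 18% of all genes, and none fell, against 5.77%. The 14 were Lama5, Lamb2 and Lamc1 of the laminins, Itga3, Itga6 and Itgb4 of the epithelial integrins, Itga5, Itga9 and Itgb5 of the broadly expressed ones, Itga7 of the mesenchymal or muscle ones, and Itgal, Itgam, Itga4 and Itgb2 of the leukocyte ones. At 7 days against 3 days the same genes except Itga7 rose, 13 of 36 (36.1%) against 14% of all genes, and none fell, against 5.31%. Both comparisons use the same 7-day livers. The median log2 fold change of all genes at 7 days was 0.26 above control, and that of the 36 members was 0.50. In 17 of the 36 members every 7-day liver was above every control, against 36.7% of all genes, and in 1, Lamb1, every 7-day liver was below, against 13.3%. At an unadjusted p under 0.05, Lama1, Lamb1 and Itga10 were lower at 7 days.

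The split between rises and falls depended on the scaling. Under quantile normalization, which moved the median change of all genes to -0.08, 11 members rose, against 13% of all genes, and 5 (Lama1, Lama4, Lamb1, Lamb3 and Itga10) fell, against 12.8%. With log2 depth as a covariate 9 rose at 7 days against control. Among the livers with more Xist than Ddx3y alone 11 rose and 1, Lama1, fell. For the fits with depth and with these livers alone the shares over all genes are not given. Whether members lost calls more than other genes is therefore not shown.

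**Figure D1:**
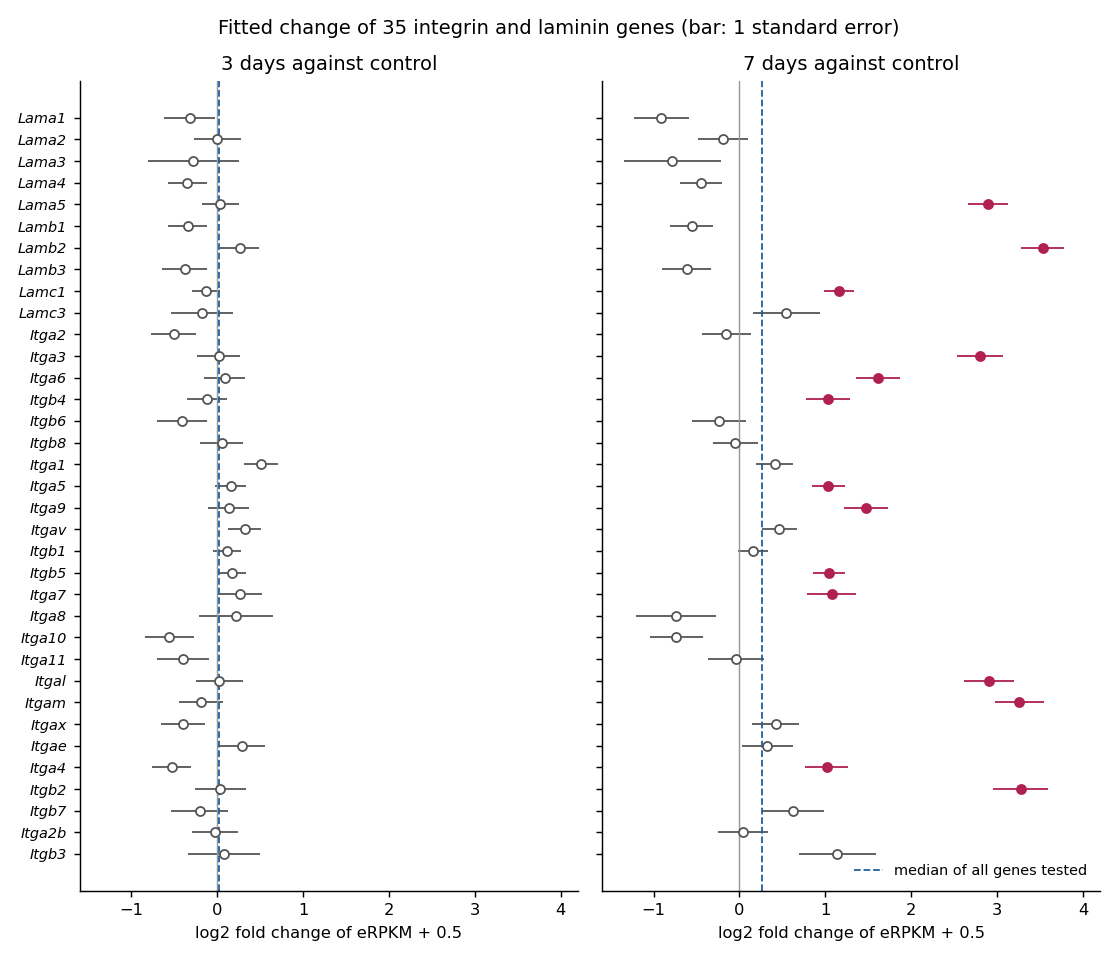
Fitted log2 fold change of 35 tested members after 3 days (left) and 7 days (right) against control, on the log2(eRPKM + 0.5) scale; bars are 1 standard error, filled points were called and the dashed line is the median of all genes tested. No point is filled at 3 days, and the 14 filled points at 7 days run from 1.02 (Itga4) to 3.53 (Lamb2).

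Among the 11 laminins, 1 chain of each kind rose (27.3%, against 18% of all genes): Lama5, Lamb2 and Lamc1, the chains of laminin-521, a trimer of basement membranes. Lamb2 was at 4.47, 4.23, 3.73 and 3.59 eRPKM in controls 1 to 4, at 2.98, 4.42, 7.26 and 5.81 in the 3-day livers and at 45.9, 56.1 and 52.3 in the 7-day livers. The 7-day livers were far above all others, and the 3-day livers lay on either side of the controls. Its log2 fold change was 3.53 ± 0.25 (SE) against control (adjusted p = 1.7e-06) and 3.27 ± 0.25 against 3 days (adjusted p = 4.08e-06). In mm9, the build of the files, Lamb2 is on chromosome 9 from 108382193 to 108392861, on the plus strand.

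Lama5, the alpha chain typical of epithelial and vascular basement membranes, was at 1.41, 2.12, 1.37 and 1.35 eRPKM in the controls, 1.27, 1.35, 1.86 and 1.97 at 3 days, and 14.6, 15.4 and 14.0 at 7 days. These values rest on 20 to 138 reads in the controls and 881 to 1083 at 7 days. No 7-day value overlapped with the other groups, and control 2 was the highest control. The log2 fold change was 2.89 ± 0.23 against control (adjusted p = 3.88e-06). Lama5 lies on mm9 chromosome 2 from 179911078 to 179960564, on the minus strand.

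Lamc1, the gamma chain shared by most laminins, started from a higher level and rose less. It was at 7.97, 9.09, 9.10 and 7.12 eRPKM in the controls, 6.45, 7.51, 9.20 and 7.26 at 3 days and 17.9, 20.7 and 18.7 at 7 days. All 7-day livers were above all others, with a log2 fold change of 1.16 ± 0.18 against control (adjusted p = 0.000274) and 1.28 ± 0.18 against 3 days (adjusted p = 0.000172). Without the livers labelled MF the adjusted p of the second comparison was 0.0107. Lamc1 lies on mm9 chromosome 1 from 155066052 to 155179916, on the minus strand.

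**Figure D2:**
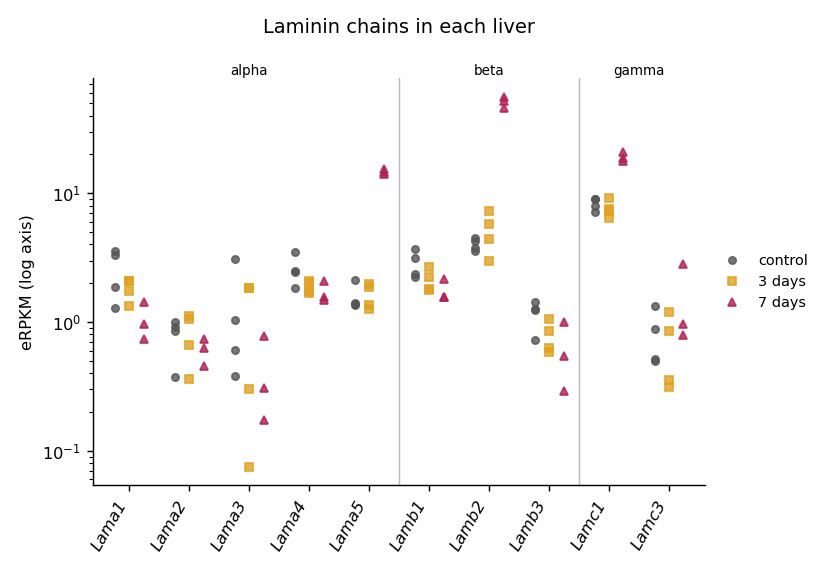
eRPKM (log axis) of 10 laminin chains in each liver, by group (circles, control; squares, 3 days; triangles, 7 days). Triangles stand clear above the other symbols for Lama5, Lamb2 and Lamc1, with 14.0 to 15.4, 45.9 to 56.1 and 17.9 to 20.7 eRPKM.

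The other 8 laminin chains were not called in any comparison. Lamb1, the beta chain of laminin-111 and laminin-411, averaged 2.85 ± 0.679 eRPKM (SD, n = 4) in controls, 2.12 ± 0.411 (n = 4) at 3 days and 1.76 ± 0.334 (n = 3) at 7 days, with a log2 difference of -0.56 ± 0.25 (adjusted p = 0.095). Lama1, of the laminin typical of embryonic basement membrane, averaged 2.52 ± 1.11, 1.81 ± 0.353 and 1.04 ± 0.359 eRPKM, a log2 difference of -0.91 ± 0.32 at 7 days (adjusted p = 0.0394). Lama4, the alpha chain of vascular laminin-411, averaged 2.56 ± 0.683, 1.87 ± 0.198 and 1.72 ± 0.328 eRPKM. The 7-day values of Lama1 and Lama4 overlapped with the controls.

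Lama3 and Lamb3, chains of the laminin that anchors skin and other stratified epithelia, were low throughout. Lama3 averaged 1.28 ± 1.24 eRPKM in controls, 1.01 ± 0.952 at 3 days and 0.419 ± 0.315 at 7 days, and Lamb3 averaged 1.17 ± 0.309, 0.779 ± 0.217 and 0.614 ± 0.364. Control 1, with 3.09 eRPKM, was the highest liver for Lama3. Lama2, the muscle chain, stayed between 0.360 and 1.12 eRPKM in all livers. Lamc3 averaged 0.808, 0.679 and 1.53 eRPKM, and its highest value, 2.82, was in the 7-day liver 2; its exons overlap those of Gm13441, and the counting ignored strand.

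The make-up of the laminin transcripts also differed at 7 days. Lama5 was 13.1% to 23.0% of the summed alpha chain eRPKM in the controls, 15.4% to 28.3% after 3 days and 75.3% to 83.1% at 7 days. Lamb2 was 46.2% to 54.9% of the beta chains in controls, 47.9% to 74.8% after 3 days and 94.7% to 96.6% at 7 days. Lamc1 was already the main gamma chain, with 85.1% to 91.8% in controls and 85.3% to 92.6% at 7 days. The summed alpha chains averaged 8.70 ± 2.10 eRPKM in controls and 18.4 ± 1.70 at 7 days, and the summed beta chains 8.02 ± 0.858 and 53.8 ± 5.65. These shares describe transcripts, not assembled trimers. Of 4 endothelial markers, Cdh5 rose at 7 days (1.504 ± 0.24, adjusted p = 0.000377 by limma), and Pecam1, Kdr and Stab2 were not called. The 4 summed to 46.9 to 95.02 eRPKM in controls and to 115.5 to 123 at 7 days, none averaged 0, and their part in the changes of the laminins was not tested.

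**Figure D3:**
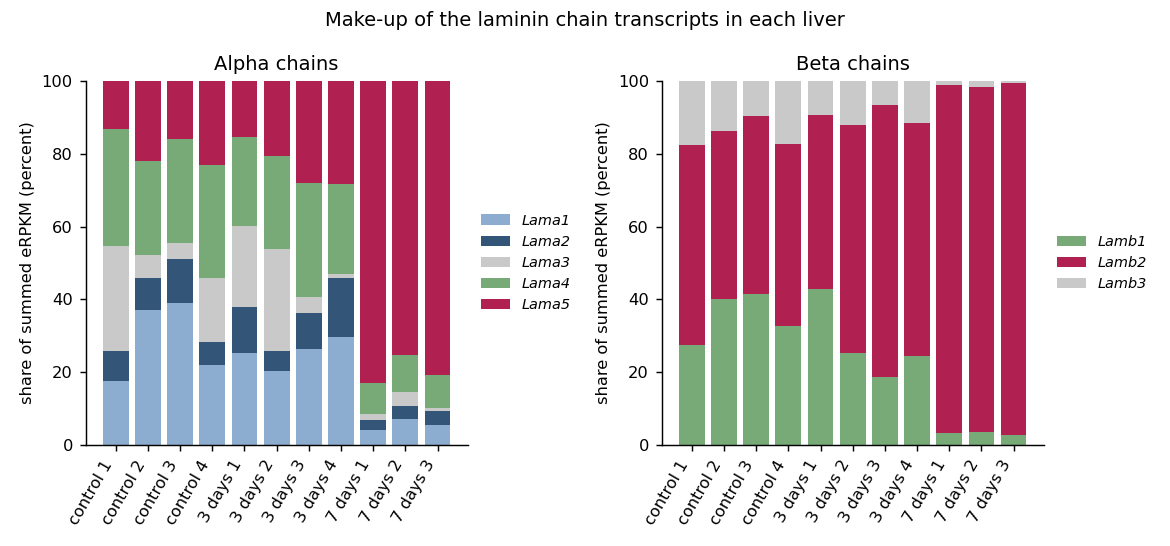
Share of each chain in the summed eRPKM of the 5 laminin alpha chains (left) and the 3 beta chains (right), as stacked percent per liver. Lama5 makes up 75.3% to 83.1% of the alpha chains in the 7-day livers and at most 28.3% elsewhere.

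Of the 6 integrins classed as epithelial, the 3 that rose (50%, against 18% of all genes) are the laminin receptor subunits. Itga3, which pairs with Itgb1 and binds laminin-521 and laminin-332, was at 2.42, 2.99, 2.23 and 1.18 eRPKM in controls, 1.74, 2.04, 2.81 and 2.11 at 3 days and 16.0, 18.9 and 18.2 at 7 days. The 7-day livers did not overlap with the others, and the log2 fold change was 2.80 ± 0.27 against control (adjusted p = 1.16e-05). Itga3 lies on mm9 chromosome 11 from 94905788 to 94938115, on the minus strand.

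Itga6, the laminin-binding partner of Itgb1 and Itgb4, was at 1.67, 2.31, 1.48 and 1.30 eRPKM in controls, 1.22, 1.92, 2.49 and 1.73 at 3 days and 5.64, 6.59 and 6.05 at 7 days. Again the 7-day livers lay above all others (log2 fold change 1.61 ± 0.26, adjusted p = 0.000386). Against 3 days (log2 fold change 1.52 ± 0.26) its call was lost among the female livers and without the livers labelled MF, at an adjusted p of at most 0.0332. Itga6 lies on mm9 chromosome 2 from 71583673 to 71696473, on the plus strand.

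Itgb4, the hemidesmosome subunit, was low: 0.596, 0.844, 0.508 and 0.293 eRPKM in controls, 0.459, 0.640, 0.432 and 0.332 at 3 days and 1.35, 2.05 and 1.54 at 7 days. The 7-day livers were above all others, with a log2 fold change of 1.03 ± 0.26 (adjusted p = 0.00707), but the call was lost, at an adjusted p of 0.0148 to 0.0337, on leaving out control 1, 3 or 4 or any 7-day liver. Against 3 days the log2 fold change was 1.15 ± 0.26 (adjusted p = 0.00465). That call was lost without the 3-day liver 1 or 4 or any 7-day liver, with an adjusted p of 0.0119 to 0.0244. Its exons overlap B230344G16Rik, and reads in the stretch that the pair shares cannot be told apart without strand.

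The other 3 epithelial subunits were near the lower end of the data. Itga2, a collagen receptor subunit, and Itgb6 and Itgb8, which with Itgav bind latent TGF-beta, stayed between 0.0836 and 0.920 eRPKM in all livers, on 1 to 27 reads, and none was called. Taken with Itga7, the laminin-binding subunits Itga3 and Itga6 were 12.6% to 17.0% of the summed eRPKM of Itga1 to Itga11 (without Itga4) and Itgav in controls, 8.36% to 19.2% after 3 days and 26.5% to 30.0% at 7 days. Of 4 markers of biliary epithelium 1, Krt7, rose, against 18% of all genes. Krt19, Epcam and Sox9 were not called, and the 7-day values of Epcam and Sox9 overlapped with the controls. The 4 summed to 4.31 to 5.63 eRPKM in controls and 11.7 to 15.1 at 7 days, with none of the 4 averaging 0. Their part in the result was not tested. In these bulk samples a change in the number of cells of a type and in the RNA per cell cannot be told apart.

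The partner of these alpha subunits, Itgb1, had the highest level of all members and was not called. It was at 80.4, 74.7, 88.2 and 75.8 eRPKM in controls, 112, 73.3, 67.7 and 101 at 3 days and 90.1, 88.03 and 89.1 at 7 days, a log2 difference of 0.16 ± 0.18 against control (adjusted p = 0.499). The 3-day livers spanned a wider range than either other group, with livers 1 and 4 highest. Itgb1 made up 61.8% to 75.2% of the summed beta subunits in controls and 43.1% to 46.2% at 7 days.

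**Figure D4:**
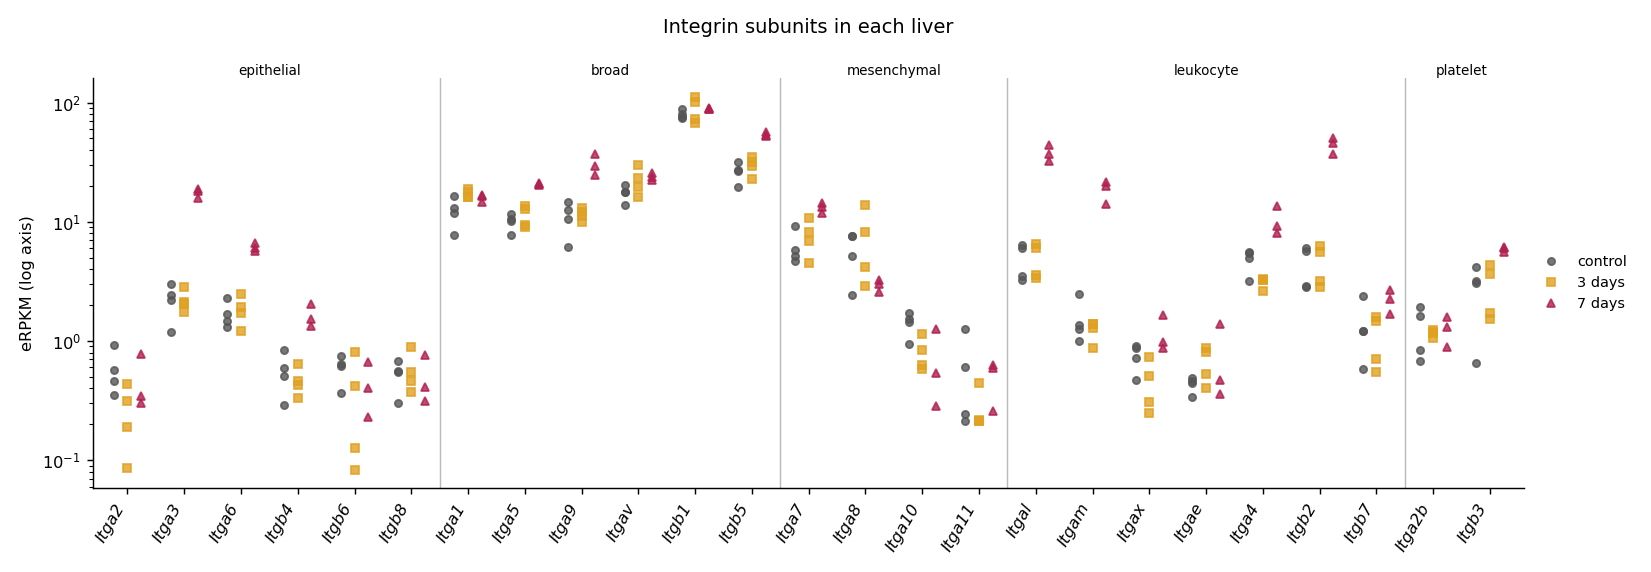
eRPKM (log axis) of 25 integrin subunits in each liver, grouped by where they are typically found (circles, control; squares, 3 days; triangles, 7 days; Itgad, with values of 0, is left out). Itga3, Itga6, Itgal, Itgam and Itgb2 show 7-day values clear of the rest, whereas Itgb1 lies between 67.7 and 112 in all groups.

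Of the broadly expressed integrins, 3 of 6 rose (50%), against 18% of all genes. Itga9, a receptor subunit for tenascin, Vcam1 and other ligands, was at 10.6, 14.7, 12.5 and 6.13 eRPKM in controls, 12.1, 10.03, 11.1 and 13.2 at 3 days and 29.4, 24.6 and 37.2 at 7 days (log2 fold change 1.47 ± 0.26 against control, adjusted p = 0.000734). Itgb5, which pairs with Itgav to bind vitronectin, was at 27.0, 32.0, 26.9 and 19.6, at 23.1, 34.7, 29.2 and 31.7 and at 52.4, 53.1 and 56.8 eRPKM (1.04 ± 0.18, adjusted p = 0.000746). Itga5, the fibronectin receptor subunit, was at 10.5, 11.6, 10.1 and 7.71, at 9.05, 9.49, 13.5 and 12.9 and at 20.7, 20.3 and 21.2 eRPKM (1.03 ± 0.19, adjusted p = 0.00119). All 3 genes had every 7-day liver above every other liver.

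Against 3 days the 3 genes rose by 1.34 ± 0.26 (Itga9), 0.87 ± 0.18 (Itgb5) and 0.88 ± 0.19 (Itga5) on the log2 scale. The Itga5 call was lost, at an adjusted p of 0.0121 to 0.0234, without the 3-day liver 1 or 2 or any 7-day liver. Without any 1 of the 7-day livers Itgb5 was lost, at 0.0128 to 0.0189, and Itga9 was lost without the 7-day liver 3, at 0.0148. With log2 depth as a covariate, Itga5 and Itga9 were not called against control, with adjusted p of 0.0185 and 0.0145. In mm9, Itga9 lies on chromosome 9 from 118515808 to 118810121 (plus strand), Itgb5 on chromosome 16 from 33829751 to 33949239 (plus strand) and Itga5 on chromosome 15 from 103174720 to 103197194 (minus strand).

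Itgav and Itga1, the other broadly expressed alpha subunits, were not called. Itgav, the common partner of vitronectin receptors, averaged 17.4 ± 2.67 eRPKM in controls, 22.2 ± 5.85 at 3 days and 24.01 ± 1.68 at 7 days (0.46 ± 0.20 on the log2 scale, adjusted p = 0.0888). Every 7-day liver was above every control, and the highest value of all, 29.9, was in the 3-day liver 1. Itga1, a collagen receptor subunit, averaged 12.3 ± 3.57, 17.2 ± 1.43 and 16.0 ± 1.10 eRPKM, and control 4, the shallowest library, was lowest at 7.69. The exons of Itgav overlap Gm13684.

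Of the 4 mesenchymal or muscle integrins, Itga7 rose (25%, against 18% of all genes) and the others were not called. Itga7, the laminin receptor subunit of muscle, was at 5.14, 9.14, 5.76 and 4.73 eRPKM in controls, 4.52, 8.28, 10.8 and 6.92 at 3 days and 11.9, 14.3 and 13.4 at 7 days. The 7-day livers were above all others, with a log2 fold change of 1.07 ± 0.28 (adjusted p = 0.0097), while the 3-day livers overlapped with the controls. This call was the closest to the threshold: it was lost, at 0.0132 to 0.0402, without control 1, 3 or 4, the 3-day liver 2 or 4, or any 7-day liver. Its exons overlap Mettl7b, so its reads in the shared stretch, whose length was not measured, cannot be assigned with certainty.

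Itga8, which marks stellate cells in the liver, was at 7.58, 7.66, 5.17 and 2.43 eRPKM in controls, 13.8, 4.18, 2.91 and 8.28 at 3 days and 2.59, 3.25 and 3.04 at 7 days. The 7-day livers were close to each other but overlapped with control 4, and the log2 difference of -0.74 ± 0.47 was not called (adjusted p = 0.232). The stellate markers (Lrat, Des, Pdgfrb and Col1a1) summed to 46.2 to 86.0 eRPKM in controls and 33.3 to 36.6 at 7 days. None of the 4 was called, and their part was not tested. Only Lrat had every 7-day liver below every control (8.81 to 11.6 against 17.0 to 36.3 eRPKM), and Des, Pdgfrb and Col1a1 overlapped. The sum of 86.0 was that of control 4, where Col1a1 was at 60.8 eRPKM, against 10.2 to 18.8 in the other controls. In the 3-day livers their sum was 78.0 and 68.9 in livers 1 and 4, the livers with the most Itga8, and 40.9 and 37.4 in livers 2 and 3. Livers 1 and 4 are the 3-day livers labelled MF. Most of that gap was Lrat, at 48.1 and 44.5 eRPKM in livers 1 and 4 and 19.9 and 14.7 in livers 2 and 3. The controls did not show the same match, since control 4 had the highest sum and the lowest Itga8. Itga10, a collagen receptor subunit of cartilage, averaged 1.41 ± 0.333 eRPKM in controls and 0.697 ± 0.505 at 7 days (-0.74 ± 0.31, adjusted p = 0.0767). Itga11 stayed between 0.213 and 1.26 eRPKM.

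Of the leukocyte integrins, 4 of 7 tested members rose (57.1%), against 18% of all genes. Itgb2, the beta subunit that all leukocyte CD11 integrins share, was at 2.86, 5.67, 6.00 and 2.89 eRPKM in controls, 2.83, 3.17, 5.62 and 6.24 at 3 days and 46.1, 37.4 and 50.1 at 7 days. Its 7-day livers were far above all others (log2 fold change 3.27 ± 0.32 against control, adjusted p = 1.34e-05). Itgam, or CD11b, the partner of Itgb2 in neutrophils, monocytes and macrophages, was at 0.995, 1.27, 1.35 and 2.48, at 0.873, 1.28, 1.39 and 1.39 and at 21.4, 14.1 and 19.9 eRPKM (3.26 ± 0.28, adjusted p = 6.04e-06). Its control 4 stood above the other controls on 20 reads. Itgal, or CD11a, its partner on most leukocytes, was at 3.22, 6.02, 6.42 and 3.48, at 3.35, 3.60, 5.97 and 6.56 and at 36.9, 32.6 and 44.3 eRPKM (2.91 ± 0.29, adjusted p = 1.6e-05). None of the 3 genes overlapped between the 7-day livers and the rest.

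Itga4, the subunit of VLA-4 that binds Vcam1, was at 4.92, 5.50, 5.63 and 3.19 eRPKM in controls, 3.27, 2.61, 3.33 and 3.25 at 3 days and 9.18, 13.6 and 8.08 at 7 days. It rose by 1.02 ± 0.25 against control (adjusted p = 0.0065) and by 1.55 ± 0.25 against 3 days (adjusted p = 0.000552). The first call was lost, at 0.0115 to 0.0410, without control 1 or 4 or any 7-day liver. Its exons overlap Cerkl, and 13.6 came from the 7-day liver 2, which stood apart. In mm9, Itgb2 lies on chromosome 10 from 76992997 to 77028453, Itgam on chromosome 7 from 135206154 to 135271674, Itgal on chromosome 7 from 134439774 to 134478651 and Itga4 on chromosome 2 from 79095583 to 79173280, all on the plus strand.

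The CD11 genes beside Itgam on chromosome 7, Itgax and Itgad, were not called. Itgax, or CD11c, typical of dendritic cells and some macrophages, averaged 0.738 ± 0.197 eRPKM in controls, 0.449 ± 0.220 at 3 days and 1.17 ± 0.419 at 7 days (0.42 ± 0.27 against control, adjusted p = 0.249). Itgad, or CD11d, was listed at 0 in 6 of the 11 livers, had 18 reads in the 7-day liver 2 and 7 reads or fewer elsewhere, and was not tested. Itgb7, the subunit of gut-homing lymphocytes, averaged 1.34 ± 0.749, 1.07 ± 0.528 and 2.21 ± 0.488 eRPKM (0.62 ± 0.36, adjusted p = 0.189). Its partner Itgae, of intraepithelial lymphocytes, stayed between 0.339 and 1.39 eRPKM, with the highest value in the 7-day liver 2. Of the summed eRPKM of the 4 CD11 genes, Itgam was 15.0% to 37.1% in controls and 29.1% to 36.2% at 7 days, so the shares overlapped.

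Leukocyte markers moved with these integrins. All 3 general leukocyte markers (Ptprc, Coro1a and Laptm5) rose, and their sum was 18.4 to 37.5 eRPKM in controls, 21.9 to 36.4 after 3 days and 128 to 160 at 7 days. Of the macrophage markers Cd68 and Csf1r rose and Clec4f was not called (sum 82.2 to 159 and 316 to 369), and of the neutrophil markers S100a9 rose and S100a8 was not called (8.30 to 17.1 and 25.1 to 39.2). No T cell, B cell or dendritic cell marker was called, with T cell markers summing to 2.33 to 5.51 eRPKM in controls and 2.02 to 5.51 at 7 days. None of these marker genes averaged 0 at 7 days, and their part in the result was not tested.

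The ratio of each member to a general leukocyte marker depended on the marker chosen. The smallest rise of the 3 was that of Ptprc (CD45), 1.957 ± 0.26 on the log2 scale, beside 2.43 ± 0.28 for Coro1a and 2.77 ± 0.35 for Laptm5. The ratio of Itgb2 to Ptprc in eRPKM was 0.461 to 0.696 in controls, 0.366 to 0.718 after 3 days and 1.27 to 1.83 at 7 days, and that of Itgal was 0.519 to 0.748, 0.433 to 0.764 and 1.11 to 1.46. The ratio of Itga4 went the other way, with 0.571 to 0.792 in controls, 0.313 to 0.5 after 3 days and 0.253 to 0.462 at 7 days. Itgam overlapped through control 4: its ratio was 0.132 to 0.533 in controls and 0.479 to 0.852 at 7 days.

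Over Laptm5 the ratio of Itgal overlapped, with 0.35 to 0.667 in controls and 0.507 to 0.654 at 7 days, as did that of Itgam, with 0.0738 to 0.475 and 0.219 to 0.381. Over Cd68, a macrophage marker, Itgam also overlapped (0.0525 to 0.23 and 0.149 to 0.216), and Itgal was at 0.242 to 0.323 and 0.346 to 0.371. Over Coro1a neither overlapped, with 0.405 to 0.69 and 0.762 to 0.853 for Itgal and 0.128 to 0.289 and 0.329 to 0.461 for Itgam. Itgb2 was higher and Itga4 lower in every 7-day liver than in every control over each of these 4 markers. The narrowest gap for Itgb2 was over Laptm5, with 0.327 to 0.554 in controls and 0.58 to 0.818 at 7 days. The ratios are given as a description with no test.

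**Figure D5:**
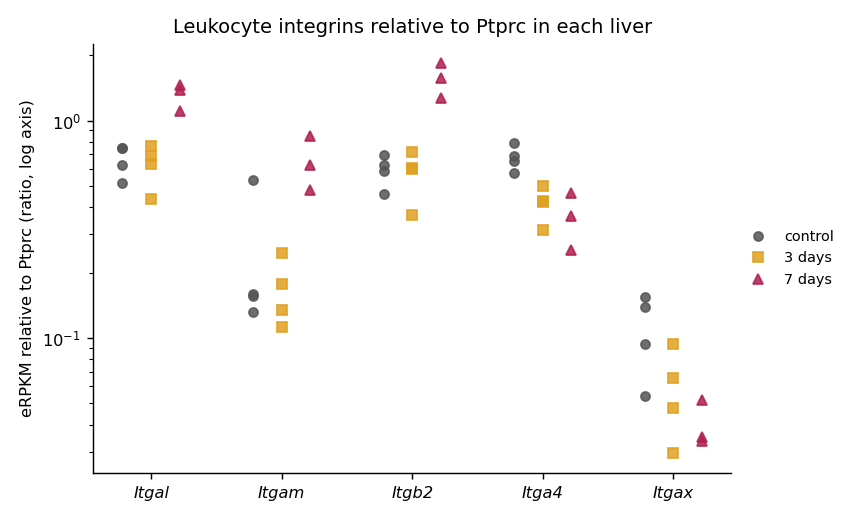
eRPKM of 5 leukocyte integrins divided by that of Ptprc in the same liver (ratio, log axis; circles, control; squares, 3 days; triangles, 7 days). On this denominator, Itgal and Itgb2 lie at 1.11 or more in the 7-day livers and at 0.764 or less elsewhere, whereas Itga4 is at 0.462 or less at 7 days and at 0.571 or more in controls.

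The platelet integrin subunits were not called. Itgb3 was at 3.08, 4.22, 3.21 and 0.658 eRPKM in controls, 1.73, 1.54, 4.34 and 3.66 at 3 days and 6.14, 6.06 and 5.61 at 7 days. All 7-day livers were above all others, but controls and 3-day livers were widely spread, and the log2 difference of 1.14 ± 0.45 did not pass (adjusted p = 0.0636). Itga2b, its partner in platelets, averaged 1.27 ± 0.609, 1.16 ± 0.0764 and 1.27 ± 0.350 eRPKM. Of the platelet markers, Pf4 rose (3.51 ± 0.36), Ppbp was not called (-0.34 ± 0.42) and Gp9 was not tested. Their sum was 1.06 to 5.77 eRPKM in controls and 20.7 to 36.8 at 7 days, nearly all of it Pf4 at 7 days (19.4 to 35.7). Ppbp averaged 1.34 eRPKM in controls and 0.864 at 7 days, and Gp9 had 1 or 2 reads in the 7-day livers. Their part was not tested.

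Some genes for proteins that work with integrins and laminins rose at 7 days. Of 12 genes of basement membrane and hemidesmosomes, 7 rose, against 18% of all genes, and none fell. The largest rises were Nid1 (3.24 ± 0.25) and Nid2 (2.27 ± 0.25), the nidogens that link laminin to collagen IV, and Bcam (2.24 ± 0.24), a receptor of Lama5. Nid1 averaged 10.2 eRPKM in controls and 98.5 at 7 days. Of 22 genes of the integrin adhesion complex 13 rose, against the same 18%, led by Fermt3 (3.29 ± 0.28), Parvg (2.58 ± 0.34) and Parvb (2.08 ± 0.28). Fermt3 (kindlin-3) and Parvg belong to blood cells, whereas Fermt2, the kindlin of other tissues, was not called (0.20 ± 0.13, 59.5 and 68.3 eRPKM). Of the 11 tested genes for other integrin ligands 5 rose, against that 18%, with the largest rises in Mfge8 (3.06 ± 0.29), a ligand of Itgav integrins, Tgfb1 (2.50 ± 0.29), whose latent form Itgav integrins bind, and Icam1 (1.90 ± 0.29), the ligand of Itgal and Itgam with Itgb2. The plasma ligands Fn1 and Vtn were not called (-0.35 ± 0.21 and -0.67 ± 0.27). Vtn had 1447 to 2254 reads in controls and 2294 to 2347 at 7 days, a narrower range than that of depth. The part of depth in its values was not tested. These lists were set with earlier results of these data known; their medians were 1.10, 0.99 and 0.74 on the log2 scale, beside 0.26 for all genes.

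In the order of mean levels per length, the members changed places at 7 days. In controls Itgb1 (79.8 eRPKM), Itgb5 (26.4), Itgav (17.4), Itga1 (12.3) and Itga9 (10.99) led, with Lamc1 at rank 7, Itgb2 at 12, Lamb2 at 13, Itga3 at 18, Lama5 at 20 and Itgam at 21 of 37. Itga1 and Itga9 overlapped over the controls, whereas Itgb1 lay above all other members in each liver. At 7 days Itgb1 (89.1) and Itgb5 (54.1) still led, followed by Lamb2 (51.5), Itgb2 (44.5) and Itgal (37.9), and Itgam was at rank 10, Itga3 at 11 and Lama5 at 13. The 7-day values of Itgb5 and Lamb2 overlapped, as did those of Lamb2 and Itgb2 and those of Itgb2 and Itgal. At 3 days the first 6 ranks were the same as in controls.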

How the data were processed

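Bulk RNA-seq of 11 mouse livers was used, grouped by the labels into 4 controls, 4 livers at 3 days and 3 at 7 days of doxycycline. According to the study's methods and the submitters' processing notes, the authors masked low-quality bases, aligned to mm9 with TopHat2 2.0.8 without strand and counted with featureCounts 1.4.5-p1; the deposited unit is eRPKM, an RPKM of exonic reads. The authors' DESeq2 columns for 7 days against control in the same table (mean signal, log2 fold change, adjusted p-value) were not used.

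All 177553 values above 0 came within 0.1 of a whole read, which gave the depth. The test, limma 3.58.1 in R 4.3.3 (lmFit, then eBayes, with a trend), used log2(eRPKM + 0.5) of genes that reached 0.5 eRPKM in 3 or more livers, all groups in 1 fit, with Benjamini-Hochberg adjustment over all genes. Fold changes on this scale understate the change of low genes. Since nothing says how libraries relate beyond the labels, p-values measure the spread between these samples. Values per liver are given for members called in at least 1 comparison, group values for others reaching a mean of 1 eRPKM, ranges for the rest, and of each list of partner genes the 3 largest rises. The values of 1 laminin chain, and not every exon overlap, are not reported here. Members, lists and classes were chosen with earlier results of these data known. GENCODE M1 gave positions and overlaps on mm9, and RefSeq gave the promoters (GRCm38.p6). The fit was tested on simulated reads. Alternatives were other pseudocounts, filters, scalings, covariates and thresholds, fewer samples, limma-voom and leaving out each liver. Python 3.11.15, numpy 2.4.6, pandas 2.3.3 and matplotlib 3.10.9 were used.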

Additional observations from a re-analysis of the deposited data

Results flagged for a closer look

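Among 58 sets of 4 livers (29 members in controls or 3-day livers), 2 held a liver whose gap to the next took more of the range than Dixon's critical value for 4 values, where chance gives about 1 in 20. Lama5 was highest in control 2 (0.924 of the range; 2.12 eRPKM against 1.35 to 1.41), and Itga4 was lowest in the 3-day liver 2 (0.885 of the range; 2.61 eRPKM against 3.25 to 3.33).

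For 13 members the effect of 7 days of induction differed from that of 3 days, tested as the difference between the induced groups in the fit with limma. On the log2 scale the laminins differed by 2.86 (Lama5), 3.27 (Lamb2) and 1.28 (Lamc1). The epithelial integrins differed by 2.78 (Itga3), 1.52 (Itga6) and 1.15 (Itgb4), and the broadly expressed ones by 0.88 (Itga5), 1.34 (Itga9) and 0.87 (Itgb5). The leukocyte integrins differed by 2.88 (Itgal), 3.44 (Itgam), 1.55 (Itga4) and 3.24 (Itgb2). In each of the 13 every 7-day liver was above every 3-day liver, but the 13 were picked by this same comparison. Among all 36 tested members this held for 17, and the share over all genes was not computed.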

How the results depend on the processing

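Over 24 alternatives the 3-day counts stayed at 0. Of the 14 members that rose at 7 days against control, 9 were called under every alternative (Lama5, Lamb2, Lamc1, Itga3, Itga6, Itgb5, Itgal, Itgam and Itgb2), and of the 13 against 3 days, 6 were (Lama5, Lamb2, Itga3, Itgal, Itgam and Itgb2). No called value changed sign in 646 refits of single members, and 76 lost the call. The number that rose against control was 9 with log2 depth as a covariate and 11 to 14 leaving out each liver; against 3 days it was 6 without the 3 livers labelled MF, an alternative chosen after seeing the data that leaves 2 livers in each induced group, and 9 to 13 leaving out each liver. The number that fell against control was 5 under quantile normalization and 1 (Lama1) with limma-voom, among the female libraries, and with an adjusted p threshold of 0.05 and no limit on fold change; against 3 days it was 1 (Lama1) under quantile normalization. The cause was not tested. With the replicate number as a block 11 rose in each comparison at 7 days and none fell. For the fits with depth, the replicate block, fewer livers or the looser threshold, the shares over all genes are not given. Same-numbered livers correlated from -0.222 to 0.269 and differently numbered ones from -0.275 to 0.238. Between controls and 3-day livers, pairs with the same Xist and Ddx3y pattern correlated from 0.148 to 0.269, and the other pairs from -0.275 to -0.0617. These few correlations cannot decide whether the numbers pair the livers. Members under about 1 eRPKM rest on few reads, so small changes in them were not detectable at this depth.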
